A study of Mus musculus with 12 samples.

Results

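The response of 10 hypoxia genes was followed across RNA sequencing of the mouse secondary palate: Hif1a, Egln1, Egln3, Vegfa, Slc2a1, Bnip3, Ankrd37, Adm, Ndrg1 and Car9. They were taken by gene symbol, and all 10 were present among the 24391 symbols of the count files. All 10 also passed the filter on low counts. The 12 libraries came from palatal shelves of C57BL/6 embryos at E13.5, when the shelves still hang beside the tongue. Anterior palate of controls (con_AP), anterior palate after tamoxifen (TAM_AP), posterior palate of controls (con_PP) and posterior palate after tamoxifen (TAM_PP) had 3 libraries each. No transgene or Cre driver is named in the labels, so the groups differ by tamoxifen, an estrogen receptor ligand, and by position along the palate. The sources used here do not give the dose, route or time of the treatment. They also leave unsaid whether the 3 replicates are different embryos, so each p-value measures only the spread among the libraries at hand, which may be technical. Nor do they say whether anterior and posterior libraries came from the same embryos, and the tests treat them as independent.

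Cells sense oxygen through prolyl hydroxylases, which use it to mark the HIF alpha subunits for destruction by the von Hippel-Lindau ubiquitin ligase. When oxygen falls the subunits escape this mark, pair with ARNT and switch on genes for glucose uptake, glycolysis, blood vessel growth, pH control and mitochondrial turnover. Hif1a encodes one of these subunits and is controlled mainly at the protein level, which RNA counts do not measure. Egln1 (PHD2) and Egln3 (PHD3) are prolyl hydroxylases and also HIF targets. Vegfa encodes the main vascular growth factor, and Adm the vasodilator peptide adrenomedullin. Slc2a1 encodes the glucose transporter GLUT1. Bnip3 encodes a mitophagy receptor, Car9 a cell surface carbonic anhydrase, Ndrg1 a stress-responsive cytoplasmic protein and Ankrd37 a small ankyrin repeat protein.

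HIF binds a short core, ACGTG or GCGTG. The 250 bases before each RefSeq gene start were searched for both cores on both strands, in promoters of build GRCm38.p6. For Hif1a and Ankrd37 these windows lie inside the gene as the GENCODE M21 annotation places it, downstream of its outermost start. An entry existed for 9 members, with 10 windows because Vegfa had 2. With bases inside exons included, each of the 9 held a core in a window, and 8 held ACGTG. With those bases left out, Car9 and Vegfa held no core, and Egln1 and Slc2a1 kept only GCGTG. Of all 32851 promoters, counted per window with exon bases included, 38.6% held either core and 16.57% held ACGTG. The members above were counted per gene, and no background was counted with exon bases left out. Of the 20778 promoters of counted symbols, 44.74% held either core and 18.04% held ACGTG. Bnip3 had 5 matches, Ankrd37 4 and Hif1a 3, while 3 or more were held by 6.58% of all promoters and 8.53% of those of counted symbols. The 6 windows below are printed to set members whose RNA rose after tamoxifen (Hif1a, Egln3, Slc2a1, Bnip3) beside 2 for which no change was called (Ankrd37, Vegfa). They run 5′ to 3′ on the gene's strand, with each match in capitals. On the reverse strand a match reads CACGT or CACGC. The longer run CACGTG holds the first core on both strands. In Ankrd37 a run of 8 capitals holds 2 overlapping matches of the second core. Bases inside exons of the GENCODE M21 annotation were left out of the printed windows, which removed 1 match each from Ankrd37 and Slc2a1.
Hif1a chr12:73907617-73907866, plus strand: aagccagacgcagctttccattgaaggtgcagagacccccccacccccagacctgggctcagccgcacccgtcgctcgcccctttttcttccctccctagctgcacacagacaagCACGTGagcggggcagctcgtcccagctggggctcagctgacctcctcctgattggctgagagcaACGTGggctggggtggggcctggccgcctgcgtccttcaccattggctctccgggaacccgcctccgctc
Egln3 chr12:54203875-54204124, minus strand: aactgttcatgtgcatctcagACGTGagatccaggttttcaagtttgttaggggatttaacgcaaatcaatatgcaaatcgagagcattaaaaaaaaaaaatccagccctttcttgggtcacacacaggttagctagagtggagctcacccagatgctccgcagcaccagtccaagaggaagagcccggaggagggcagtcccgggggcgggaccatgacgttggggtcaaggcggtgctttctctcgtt
Slc2a1 chr4:119108495-119108710, plus strand: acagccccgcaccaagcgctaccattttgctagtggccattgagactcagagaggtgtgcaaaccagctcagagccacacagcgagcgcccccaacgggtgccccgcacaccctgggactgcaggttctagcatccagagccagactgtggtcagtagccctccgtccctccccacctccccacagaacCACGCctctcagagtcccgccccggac
Bnip3 chr7:138909520-138909756, minus strand: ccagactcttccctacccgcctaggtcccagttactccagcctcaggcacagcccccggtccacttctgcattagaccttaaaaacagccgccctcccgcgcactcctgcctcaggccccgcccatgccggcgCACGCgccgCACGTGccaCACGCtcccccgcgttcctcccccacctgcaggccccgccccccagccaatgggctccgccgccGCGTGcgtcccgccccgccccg
Ankrd37 chr8:45999868-46000100, minus strand: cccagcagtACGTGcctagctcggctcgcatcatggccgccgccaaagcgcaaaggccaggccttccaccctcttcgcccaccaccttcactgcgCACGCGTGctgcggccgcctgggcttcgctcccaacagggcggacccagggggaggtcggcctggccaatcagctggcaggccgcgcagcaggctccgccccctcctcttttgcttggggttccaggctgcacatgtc
Vegfa chr17:46032378-46032627, minus strand: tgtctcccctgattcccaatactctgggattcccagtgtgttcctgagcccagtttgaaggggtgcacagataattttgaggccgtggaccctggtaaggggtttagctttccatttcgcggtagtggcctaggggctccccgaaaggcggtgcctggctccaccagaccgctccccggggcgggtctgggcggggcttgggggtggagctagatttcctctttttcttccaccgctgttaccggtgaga

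The Vegfa window shown lies before the outer of its 2 starts and held no match, while the window before the inner start, chr17:46025164-46025413, held 2. Egln1 and Adm had 2 matches each, and Egln3 and Car9 had 1. Both inner Vegfa matches, the Car9 match and the ACGTG of Egln1 lay inside exons. Matches were therefore present both in members whose RNA rose and in members for which no change was called. A match describes the letters and is not a measured binding site.

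In the GENCODE M21 annotation (GRCm38), the regulator and its hydroxylases lie at Hif1a chr12:73901375-73947530, Egln1 chr8:124908587-124949324 and Egln3 chr12:54178981-54203860. The targets lie at Vegfa chr17:46016993-46032369, Slc2a1 chr4:119108711-119137983, Bnip3 chr7:138890836-138909519, Ankrd37 chr8:45996902-46005707, Adm chr7:110627661-110629820, Ndrg1 chr15:66929318-66969640 and Car9 chr4:43506966-43513729. The counts are per gene symbol and do not separate exons, introns or UTRs.

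Libraries held 39.4 M to 73.02 M counts, with the anterior tamoxifen library of replicate 1 the deepest and the next at 50.2 M. Levels below are CPM, counts scaled to library size with TMM factors. Summed palatal mesenchyme markers lay between 2642 and 3533 CPM in every library, with none of the 10 at 0. The shelves are mixed tissue, and in such bulk RNA fewer cells of a type and less RNA per cell cannot be told apart. Fold changes depended strongly on transcript length and GC content: across 15844 genes the log2 fold change after tamoxifen had a rank correlation of 0.54 with length and -0.52 with GC in the anterior palate, and of 0.48 and -0.41 in the posterior palate. Each test is therefore given on 2 versions of the counts: as deposited, and with the length and GC trend of each library removed. A call is an adjusted p under 0.05 over all genes tested, from edgeR (quasi-likelihood fit, Benjamini-Hochberg method).

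Per kilobase of the longest transcript, Slc2a1 was the most abundant member in all 4 groups, from 35.2 CPM per kb in the control posterior palate to 57.4 in the anterior palate after tamoxifen. Egln1, Vegfa and Hif1a filled ranks 2 to 4 in every group, and Bnip3 was always rank 5. Ndrg1, Ankrd37 and Egln3 formed a lower tier between 3.34 and 7.23 CPM per kb. Car9 (0.793 to 1.03 CPM per kb) and Adm (0.282 to 0.784) were the scarcest. There were 2 members that changed place after tamoxifen by more than 1 rank. Hif1a moved from rank 4 to rank 2 in the anterior palate, from 21.0 ± 1.72 to 36.8 ± 4.08 CPM per kb (SD, n = 3). These ranks are of the counts as deposited. With the trend removed, anterior tamoxifen Hif1a averaged 151 CPM over 4724 bases, and Egln1 143 CPM over 3594 bases. Per kb Hif1a then lay below Egln1. Egln3 moved from rank 8 to rank 6 in the posterior palate, from 4.67 to 7.23 CPM per kb, close to Ndrg1 at 6.29 and Ankrd37 at 5.73.

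**Figure D1:**
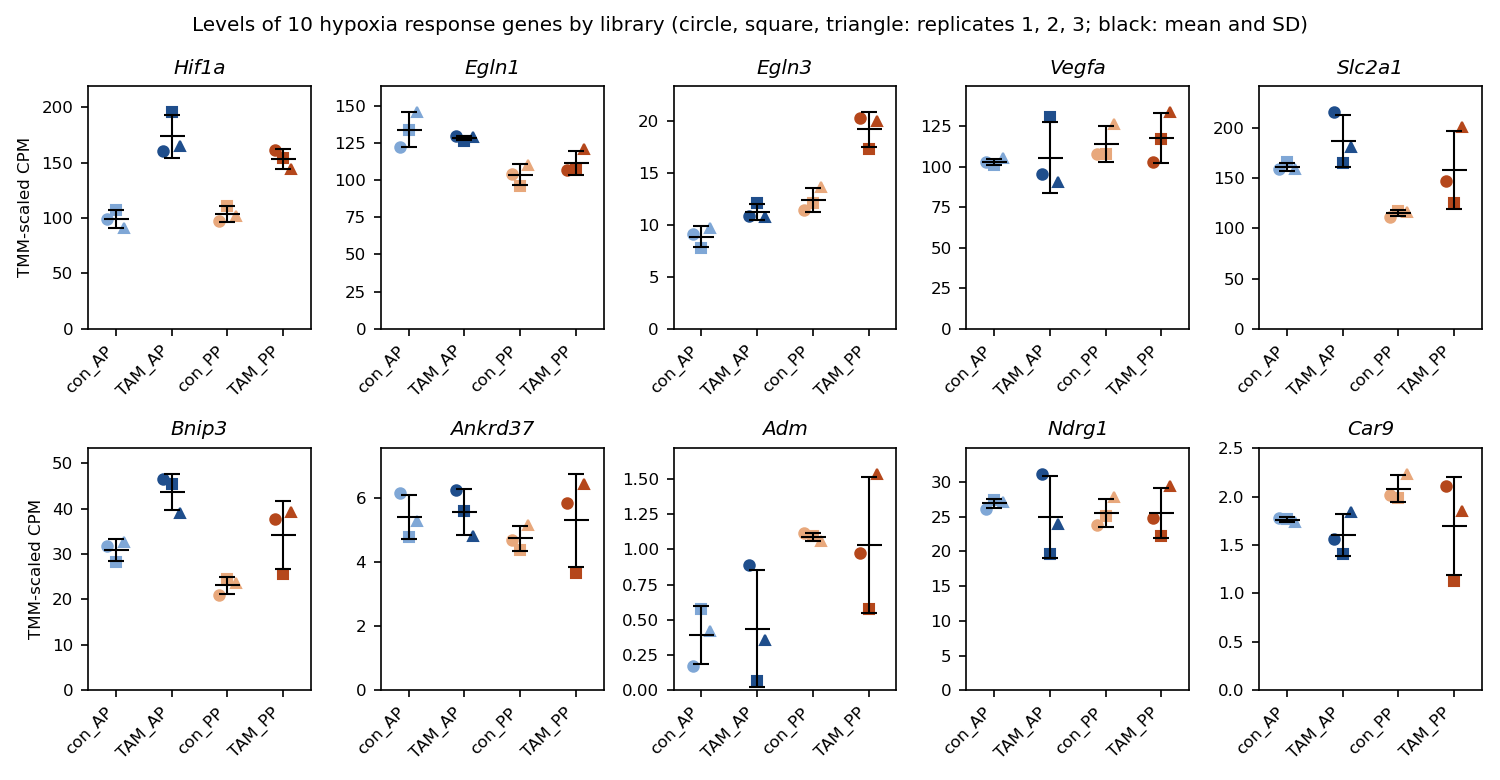
Level of each hypoxia response gene in CPM (linear axis from 0, 1 panel per gene) in the 4 groups; points are libraries, and the bars give the mean and SD of 3 libraries. The tamoxifen points of Hif1a, Egln3 and Bnip3 lie above all control points of the same region, whereas those of Vegfa and Ndrg1 overlap them.

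RNA for the HIF subunit itself was higher after tamoxifen in both regions. In the anterior palate Hif1a stood at 99.4, 107 and 91.0 CPM in controls and at 160, 196 and 165 CPM after tamoxifen. In the posterior palate it stood at 97.5, 111 and 102 CPM in controls and at 162, 154 and 144 CPM after tamoxifen. Every tamoxifen library was above every control library. The rise was 1.75-fold in the anterior palate (log2 0.81, SE 0.089, adjusted p = 4.7e-06) and 1.48-fold in the posterior palate (log2 0.57, SE 0.089, adjusted p = 5.9e-04). Hif1a has a long, AT-rich transcript of 4724 bases and 41.3% GC, against medians of 3307 bases and 50% over the genes tested. With the trend removed its rise was smaller, log2 0.37 (95% interval 0.27 to 0.48, adjusted p = 3.7e-05) in the anterior and 0.30 (0.20 to 0.41, adjusted p = 9.7e-04) in the posterior palate. Both calls held when any 1 library was left out, with and without the trend.

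Of the 2 hydroxylases, Egln3 rose in both regions, and for Egln1 no change was called on the deposited counts. Egln3 was at 9.16, 7.81 and 9.72 CPM in anterior controls and at 10.9, 12.2 and 10.7 CPM after tamoxifen. In the posterior palate it went from 11.5, 12.1 and 13.7 CPM to 20.3, 17.3 and 20.1 CPM. The groups did not overlap in either region. The change was 1.26-fold in the anterior palate (log2 0.34, SE 0.12, adjusted p = 0.024) and 1.55-fold in the posterior palate (log2 0.63, SE 0.11, adjusted p = 0.0013). Without replicate 2 of the anterior controls, or without replicate 2 of the anterior tamoxifen group, the anterior call was lost, with adjusted p up to 0.10. Once the trend was removed, Egln3 rose by log2 0.48 (adjusted p = 0.0037) and 0.69 (adjusted p = 7.5e-04), and both calls held without any 1 library.

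Egln1 was at 122, 134 and 146 CPM in anterior controls and at 130, 127 and 129 CPM after tamoxifen. The posterior values were 104, 96.1 and 110 CPM in controls and 107, 108 and 121 CPM after tamoxifen. Groups overlapped in both regions, and no change was called (log2 -0.06, adjusted p = 0.54, and log2 0.11, adjusted p = 0.32). After removal of the trend, Egln1 was higher after tamoxifen by log2 0.19 (adjusted p = 0.024) and 0.21 (adjusted p = 0.025), so in the anterior palate the sign turned. Those calls held in 3 of 6 fits that left out a library in the anterior palate and in 2 of 6 in the posterior palate.

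Among the other targets, Bnip3 rose in both regions. Anterior controls had 31.9, 28.2 and 32.8 CPM, and anterior tamoxifen libraries 46.6, 45.5 and 39.1 CPM. Posterior controls had 21.0, 24.6 and 23.7 CPM, and posterior tamoxifen libraries 37.7, 25.6 and 39.3 CPM. The groups did not overlap, although the second posterior tamoxifen library lay just above the controls. The rise was 1.41-fold (log2 0.50, SE 0.13, adjusted p = 0.0050) in the anterior and 1.48-fold (log2 0.57, SE 0.13, adjusted p = 0.0060) in the posterior palate. Bnip3 was moved little by the trend, to log2 0.43 (adjusted p = 0.019) and 0.53 (adjusted p = 0.012). In the fit without the trend, adjusted p reached 0.081 in the anterior palate (without control replicate 2 or tamoxifen replicate 1) and 0.056 in the posterior palate (without control replicate 1).

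Slc2a1, the glucose transporter, rose in the posterior palate. Its posterior values were 111, 117 and 116 CPM in controls and 148, 125 and 201 CPM after tamoxifen, with no overlap but a wide tamoxifen spread. The change was 1.37-fold (log2 0.46, SE 0.13, adjusted p = 0.020), and leaving out control replicate 1, control replicate 3 or tamoxifen replicate 3 took the adjusted p to as much as 0.094. Without tamoxifen replicate 3 the change itself dropped to log2 0.25. Anterior values were 159, 166 and 159 CPM in controls and 216, 165 and 181 CPM after tamoxifen. These overlapped through the second tamoxifen library, and no change was called (log2 0.22, SE 0.13, adjusted p = 0.19). With the trend removed Slc2a1 was higher by log2 0.42 in the anterior (adjusted p = 0.037) and 0.54 in the posterior palate (adjusted p = 0.021). The anterior one of these calls was lost whichever library was left out, with adjusted p from 0.058 to 0.13. The posterior one was lost without control replicate 1, control replicate 3 or tamoxifen replicate 1.

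The remaining 5 targets showed no called change in either region when all libraries were used, with or without the trend. With the trend removed, Ndrg1 was called lower in the anterior palate without tamoxifen replicate 1 (log2 -0.38 in place of -0.19, adjusted p = 0.021). Ankrd37 was then called higher in the posterior palate without tamoxifen replicate 2 (log2 0.56 in place of 0.35, adjusted p = 0.036). Vegfa spanned 101 to 105 CPM in anterior controls against 90.5 to 131 after tamoxifen, and 108 to 127 in posterior controls against 103 to 134 after tamoxifen. Its log2 change was 0.04 (95% interval -0.23 to 0.30) and 0.05 (-0.21 to 0.31). Ndrg1 ran from 19.6 to 31.2 CPM over all libraries, with log2 changes of -0.11 (-0.40 to 0.19) and -0.00 (-0.30 to 0.29). Ankrd37 ran from 3.66 to 6.43 CPM, with log2 changes of 0.04 (-0.36 to 0.44) and 0.16 (-0.24 to 0.56). Its exons overlap Ufsp2 on the opposite strand, which stood at 19.1 to 25.9 CPM and was not called either. Because no source used here states the strand setting, reads of the 2 genes may not be separated. Car9 stayed between 1.13 and 2.24 CPM, with log2 changes of -0.13 (-0.64 to 0.37) and -0.29 (-0.79 to 0.21). Adm rested on 3 to 69 counts per library, and its intervals of -1.08 to 1.55 and -1.25 to 1.08 are the widest of the 10. The counts within a tamoxifen group were uneven, 66, 3 and 16 in the anterior and 50, 27 and 69 in the posterior palate.

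Counted as a list, 3 of the 10 members were called higher and 0 lower in the anterior palate, where 49.7% of all genes tested were called (25.6% higher and 24.0% lower). At an unadjusted p under 0.05 no further member was lower in either region, and DESeq2 called the same numbers. The count of 3 is close to the background. In the posterior palate 4 were called higher and 0 lower, against 29.0% of all genes called, 17.3% higher and 11.7% lower. With the trend removed, 5 were called higher and 0 lower in each region (Hif1a, Egln1, Egln3, Slc2a1 and Bnip3). The background was then 32.7% called in the anterior palate (16.1% higher, 16.6% lower) and 17.9% in the posterior palate (7.72% higher, 10.1% lower). Control and tamoxifen libraries did not overlap for 3 members in the anterior and 4 in the posterior palate, all higher after tamoxifen, against 56.5% and 48.0% of all genes in either direction. The members' median log2 change was 0.13 in both regions, beside -0.02 and 0.02 over all genes. Without the trend it was 0.36 and 0.26, beside 0.01 and -0.00.

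**Figure D2:**
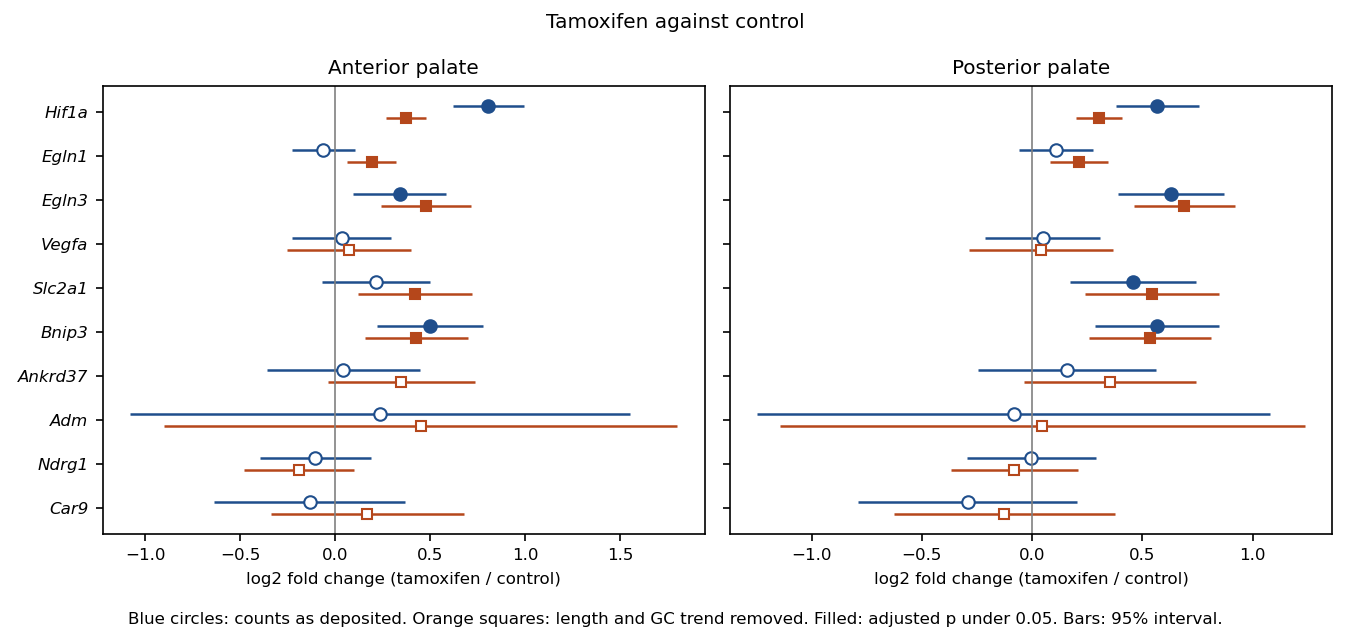
Log2 fold change (tamoxifen over control) of the 10 genes in anterior and posterior palate, with 95% intervals; circles use the counts as deposited, squares the fit with the length and GC trend removed, and filled symbols have an adjusted p under 0.05. Hif1a, Egln3 and Bnip3 are filled in both panels and both fits, and the squares of Hif1a lie nearer 0 than its circles.

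For no member was a difference between the regions in its response to tamoxifen called. The anterior minus posterior difference of the tamoxifen effects was called for 0 members and 0 of all 15958 genes (0% called) by edgeR. At an unadjusted p under 0.05 there were 0 members and 2110 genes. DESeq2 called 0 members and 160 genes, and limma-voom 0 and 0. Hif1a had the difference log2 0.24 (95% interval -0.02 to 0.51, adjusted p = 0.41), Egln3 -0.29 (-0.64 to 0.05, adjusted p = 0.45) and Slc2a1 -0.24 (-0.65 to 0.16, adjusted p = 0.59). The posterior call of Slc2a1 and the lack of an anterior one are thus no measured difference between regions.

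Summed cell type markers, on the counts as deposited, moved with treatment in part. Summed macrophage markers were 38.3 to 43.2 CPM in anterior controls and 43.2 to 58.8 CPM after tamoxifen, and 42.5 to 44.1 and 46.3 to 58.3 CPM in the posterior palate. Posterior skeletal muscle markers were 659 to 748 CPM in controls and 821 to 1104 CPM after tamoxifen, without overlap. Cartilage markers were 474 to 534 and 389 to 474 CPM in the anterior palate and 1984 to 2172 and 1388 to 2015 CPM in the posterior palate, and posterior epithelial markers 423 to 467 and 463 to 612 CPM. Endothelial markers covered 551 to 619 CPM in anterior controls and 542 to 598 CPM after tamoxifen, and 560 to 606 and 600 to 646 CPM in the posterior palate, with overlap in both. Single endothelial genes moved both ways, 4 of 11 called higher and 6 lower in the anterior and 4 and 2 in the posterior palate, and 4 and 3, and 4 and 0, with the trend removed. Pecam1, Cdh5, Tek and Erg, singled out after their values were seen, were higher after tamoxifen in both regions and both fits, by log2 0.20 to 0.51. These 4 do not stand for the list. The median log2 change of all 11 was -0.37 in the anterior and -0.07 in the posterior palate. With the trend removed the medians were 0.18 and 0.06. Erythroid markers, of which 5 of 14 were at 0 in every library, were 868 to 1273 CPM in anterior controls and 616 to 989 CPM after tamoxifen. Posterior erythroid markers were 805 to 943 CPM in controls and 715 to 768 CPM after tamoxifen. Gene by gene these shifts were weaker. Of 8 tested erythroid genes, 0 were called higher and 3 lower in the anterior palate, and 1 and 1 with the trend removed. Of 6 cartilage genes, 2 were called higher and 1 lower there, and 0 with the trend removed. In the posterior palate 1 of 9 muscle genes was called higher, and 2 with the trend removed. The shares over all genes are given above. The part of these cell types in the changes of the hypoxia genes was not tested.

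The regions of the palate differed in 4 members already in controls. Egln1 was higher in the anterior palate by log2 0.37 (SE 0.079, adjusted p = 0.0025), with no overlap. Slc2a1 was higher there by log2 0.49 (SE 0.13, adjusted p = 0.016), 159 to 166 against 111 to 117 CPM. Bnip3 was higher by log2 0.42 (SE 0.13, adjusted p = 0.031), 28.2 to 32.8 against 21.0 to 24.6 CPM. Egln3 went the other way and was lower in the anterior palate by log2 -0.48 (SE 0.12, adjusted p = 0.0064). The 2 hydroxylases thus had opposite gradients, Egln1 toward the anterior and Egln3 toward the posterior palate. Over all genes 23.3% were called, 10.2% higher and 13.1% lower in the anterior palate. With the trend removed, the same 4 members were called, against 27.0% of all genes (14.4% higher, 12.5% lower). Values of the 2 regions did not overlap for these 4 and for Vegfa, Adm and Car9, which were all lower in the anterior palate but not called, against 41.2% of all genes. Egln1 and Egln3 kept their calls without any 1 library. The Slc2a1 call was lost in 4 of 6 such fits (adjusted p up to 0.071, without any 1 of the anterior controls or without posterior replicate 1). With the trend removed it was lost in all 6 (adjusted p from 0.056 to 0.083). The Bnip3 call was lost in 5 of 6, all but the one without anterior replicate 2 (adjusted p up to 0.11).

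Adm had its clearest contrast here. Anterior controls had 0.173, 0.580 and 0.422 CPM, and posterior controls 1.11, 1.10 and 1.06 CPM. These did not overlap, but the difference of log2 -1.47 (SE 0.60) missed the threshold at adjusted p = 0.091. Fitted on these 6 libraries alone, it was called (log2 -1.47, adjusted p = 0.017). Hif1a did not differ detectably between regions in controls (log2 -0.06, 95% interval -0.25 to 0.13).

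After tamoxifen 1 of these 4 region differences was called. Egln3 was lower in the anterior palate by log2 -0.77 (SE 0.11, adjusted p = 9.0e-05), 10.7 to 12.2 against 17.3 to 20.3 CPM, where 17.8% of all genes were called (7.60% higher, 10.2% lower). Egln1 had log2 0.20 (adjusted p = 0.092), which became 0.33 with the trend removed (adjusted p = 6.1e-04), so that fit called 2 members against 24.8% of all genes (13.8% higher, 11.0% lower). These 2 hydroxylases were also the members whose regions did not overlap after tamoxifen, against 33.1% of all genes. Bnip3 had log2 0.36 (adjusted p = 0.074) and Slc2a1 0.25 (adjusted p = 0.24). Without posterior tamoxifen replicate 3, both were called higher in the anterior palate, with adjusted p = 0.037 and 0.0069. Without anterior tamoxifen replicate 1, Adm was called lower in the anterior palate (log2 -2.28 in place of -1.15, adjusted p = 0.020). Without anterior tamoxifen replicate 2, so was Vegfa (log2 -0.34 in place of -0.16, adjusted p = 0.025). The change of these gradients with treatment is the difference of effects given above, which was called for none of them. Region comparisons and treatment comparisons share libraries, so their values are not independent.

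Tissue make-up differed strongly between the regions. In controls, summed skeletal muscle markers were 7.59 to 26.9 CPM in the anterior and 659 to 748 CPM in the posterior palate. Cartilage markers were 474 to 534 and 1984 to 2172 CPM, and epithelial markers 801 to 1026 and 423 to 467 CPM. Their part in the gradients of Egln1, Egln3, Slc2a1 and Bnip3 was not tested.

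**Figure D3:**
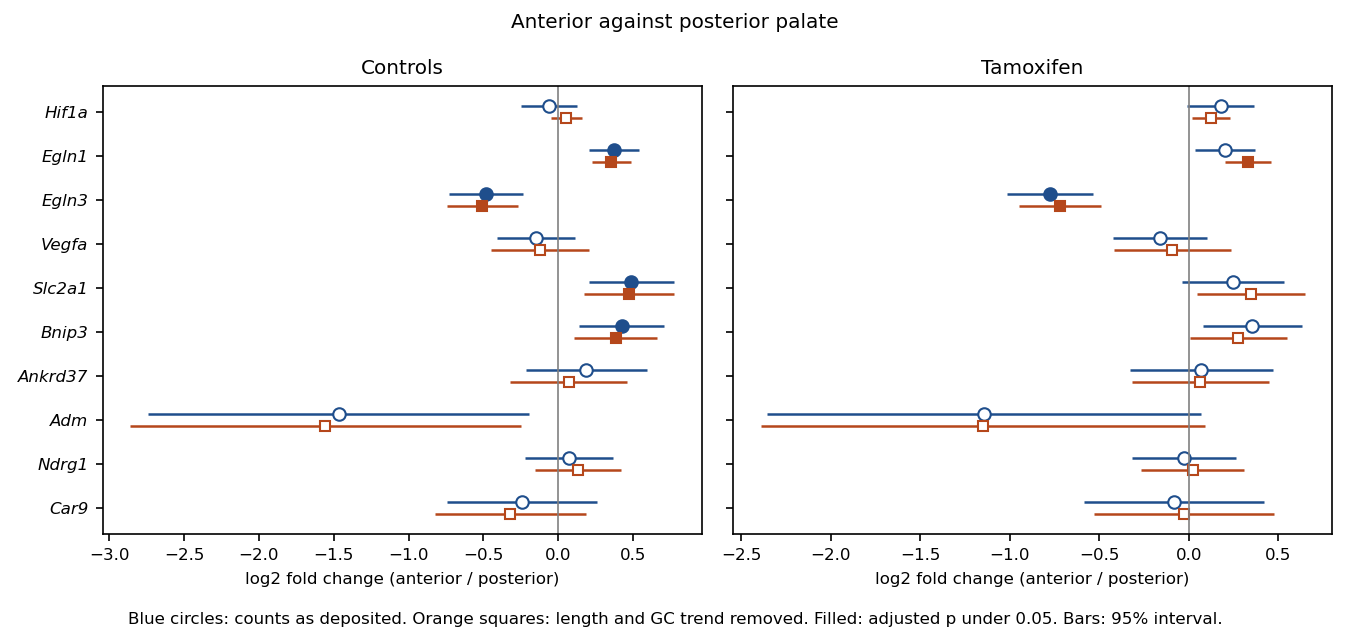
Log2 fold change (anterior over posterior palate) of the 10 genes in controls and after tamoxifen, with 95% intervals, drawn like the treatment effects. Egln3 is filled left of 0 in both panels and Egln1 lies right of 0, while the interval of Adm is the widest.

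The tamoxifen libraries were uneven for these genes. The members' median coefficient of variation was 8.02% in con_AP, 13.3% in TAM_AP, 7.36% in con_PP and 18.0% in TAM_PP, beside 9.95%, 10.2%, 7.67% and 8.53% over all genes. In each region 8 of 10 members varied more after tamoxifen, while 50.2% (anterior) and 55.2% (posterior) of all genes did. Posterior tamoxifen replicate 2 was the lowest of its group for 7 members and replicate 3 the highest for 7. Replicate 2 had the lowest values of Slc2a1 (125 CPM), Bnip3 (25.6), Ankrd37 (3.66), Adm (0.574), Ndrg1 (22.3) and Car9 (1.13), and also of Egln3 (17.3), but not of Hif1a (154). Its summed epithelial markers were likewise the lowest, 463 CPM against 531 and 612 CPM in replicates 1 and 3. So were its macrophage markers, 46.3 CPM against 52.5 and 58.3 CPM. Its skeletal muscle (1104 CPM), cartilage (2015), palatal mesenchyme (3041) and erythroid (768) markers were the highest of the group. Whether any of these bears on the members was not tested.

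In all, 5 wider lists place the members among related genes. They were chosen with results of these data known, and their counts support no direction on their own. Of 19 HIF subunits and oxygen-sensing genes, 9 were called higher and 4 lower in the anterior palate after tamoxifen, and 5 and 2 in the posterior palate. Without the trend these counts were 6 and 2, and 3 and 1. Over all genes the shares, the background for all 5 lists, were 25.6% higher and 24.0% lower in the anterior and 17.3% and 11.7% in the posterior palate, and without the trend 16.1% and 16.6%, and 7.72% and 10.1%. Ep300, a HIF coactivator, rose from 79.7 ± 14.6 to 153 ± 0.384 CPM in the anterior palate (SD, n = 3, log2 0.94, adjusted p = 4.2e-06) and still by log2 0.45 without the trend (adjusted p = 5.9e-05). Posterior Ep300 rose by log2 0.58 (adjusted p = 0.0011, and 0.25 at adjusted p = 0.013 without the trend). Epas1, which encodes HIF-2 alpha, rose in the posterior palate by log2 0.42 (adjusted p = 0.0052, and 0.27 at adjusted p = 0.026 without the trend). Its anterior rise was log2 0.51 (adjusted p = 4.0e-04, and 0.31 at adjusted p = 0.0053 without the trend). Egln2, the gene of the prolyl hydroxylase PHD1, fell in the anterior palate by 0.65 on the log2 scale (adjusted p = 6.6e-05), but its value was -0.03 without the trend (adjusted p = 0.74). Posterior Egln2 had log2 -0.40 (adjusted p = 0.0079), and -0.11 without the trend (adjusted p = 0.18). Tceb2, which encodes elongin B of the von Hippel-Lindau complex, changed sign in the anterior palate, from log2 -0.53 (adjusted p = 1.1e-04) to 0.27 (adjusted p = 0.0017). In the posterior palate Tceb2 went from log2 -0.42 (adjusted p = 0.0029) to 0.03 (adjusted p = 0.73).

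Of 24 tested genes of glucose uptake and glycolysis, 6 were called higher and 4 lower in the anterior palate, and 6 in the posterior palate, all higher. The counts without the trend were 10 and 2, and again 6. The anterior count of 6 higher on the deposited counts is close to the 25.6% of all genes. Hk2, a hexokinase, rose from 70.7 ± 2.40 to 107 ± 6.99 CPM in the anterior palate (log2 0.60, adjusted p = 2.1e-04, and 0.37 at adjusted p = 0.0074 without the trend). Posterior Hk2 rose by log2 0.41 (adjusted p = 0.0088, and 0.24 at adjusted p = 0.092 without the trend). Slc2a3, the glucose transporter GLUT3, was called higher in both regions (log2 0.69 and 0.53), but not without the trend (0.21 and 0.22, adjusted p = 0.11 and 0.14). Pdk1, a pyruvate dehydrogenase kinase, rose in the posterior palate by log2 0.46 (adjusted p = 0.0037, and 0.20 at adjusted p = 0.093 without the trend). Its anterior rise was log2 0.49 (adjusted p = 7.1e-04, and 0.08 at adjusted p = 0.47 without the trend). Eno2, the neuronal enolase, fell in the anterior palate by 0.80 on the log2 scale (adjusted p = 2.2e-04, and 0.51 at adjusted p = 0.0086 without the trend). Posterior Eno2 had log2 -0.32 and was not called (adjusted p = 0.096). Several glycolytic genes have near-identical copies in the genome, so their counts are uncertain.

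The same list had a regional side. In controls 9 of its genes were called higher and 1 lower in the anterior palate, and 12 and 1 without the trend, beside 10.2% and 13.1% of all genes, or 14.4% and 12.5% without the trend. Aldoc, an aldolase, had 22.4 ± 3.66 CPM in anterior controls and 5.15 ± 1.14 CPM in posterior controls (log2 2.12, adjusted p = 1.8e-07). Pgm2, a phosphoglucomutase, and Pfkl, a phosphofructokinase subunit, were higher there by log2 0.49 and 0.38 (adjusted p = 2.3e-04 and 0.0082). Slc2a1 lay on the same side.

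Among 51 other hypoxia targets, 13 were called higher and 8 lower in the anterior and 16 and 3 in the posterior palate, and 9 and 7, and 11 and 4, without the trend. Here too the 13 called higher in the anterior palate are close to the 25.6% of all genes. Ero1l, an oxidase of the endoplasmic reticulum, rose in the anterior palate from 15.4 ± 2.68 to 30.1 ± 3.27 CPM (log2 0.96, adjusted p = 2.2e-05, and 0.58 without the trend). Loxl2, a collagen cross-linking enzyme, rose there by log2 0.64 (adjusted p = 6.9e-06, and 0.43 without the trend). In the posterior palate Ero1l rose by log2 0.47 (adjusted p = 0.013, and 0.23 at adjusted p = 0.11 without the trend). Posterior Loxl2 rose by log2 0.24 (adjusted p = 0.025, and 0.08 at adjusted p = 0.31 without the trend). Kdm3a, a histone demethylase induced by HIF, rose in the posterior palate by log2 0.59 (adjusted p = 0.0038, and 0.35 at adjusted p = 0.035 without the trend). Its anterior rise was log2 0.72 (adjusted p = 2.6e-04, and 0.34 at adjusted p = 0.025 without the trend). Vldlr, a lipoprotein receptor, was called higher in the anterior palate by log2 0.60, but had -0.08 without the trend (adjusted p = 0.36). In the posterior palate it rose by log2 0.65 (adjusted p = 5.0e-04) and stayed called without the trend (log2 0.23, adjusted p = 0.027).

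While Vegfa and Adm themselves showed no called change, their receptors and relatives did in part. Of 13 such genes, 6 were called higher and 3 lower in the anterior and 6 and 2 in the posterior palate, and 5 and 2, and 3 and 1, without the trend, while 49.7% and 29.0% of all genes were called on the deposited counts. Nrp2, a VEGF co-receptor, rose in the anterior palate from 230 ± 18.2 to 347 ± 27.0 CPM (log2 0.60, adjusted p = 2.5e-05, and 0.23 at adjusted p = 0.0050 without the trend). Posterior Nrp2 rose by log2 0.33 (adjusted p = 0.0068, and 0.08 at adjusted p = 0.34 without the trend). Flt1, a VEGF receptor, rose in the posterior palate from 24.7 ± 1.55 to 34.8 ± 1.06 CPM (log2 0.49, adjusted p = 8.6e-04, and 0.22 at adjusted p = 0.027 without the trend). Its anterior rise was log2 0.61 (adjusted p = 3.0e-05, and 0.20 at adjusted p = 0.028 without the trend). Figf, the gene of VEGF-D, fell in the anterior palate from 4.94 ± 0.703 to 1.84 ± 0.208 CPM (log2 -1.42, adjusted p = 2.1e-05, and still called without the trend). Posterior Figf had log2 -0.04 and was not called (adjusted p = 0.88). Ramp2, a subunit of the adrenomedullin receptor, fell in the anterior palate by 0.80 on the log2 scale (adjusted p = 1.5e-05, and by 0.31 at adjusted p = 0.0014 without the trend). Posterior Ramp2 had log2 -0.29 (adjusted p = 0.040), and -0.03 without the trend (adjusted p = 0.81).

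Of 13 relatives of Ndrg1, Bnip3 and Car9, 2 were called in the anterior palate, Bnip1 and Car11, and 1 in the posterior palate, Bnip1, all lower after tamoxifen. Without the trend 0 were called higher and 2 lower in each region, Bnip1 and Ndrg3. Ndrg3 then had log2 -0.40 in the anterior (adjusted p = 5.1e-04) and -0.22 in the posterior palate (adjusted p = 0.049). Bnip1, a membrane fusion protein that shares a domain with Bnip3, fell by 0.39 (adjusted p = 0.0015) in the anterior and 0.35 (adjusted p = 0.0082) in the posterior palate on the log2 scale, opposite to Bnip3. Car11, an inactive carbonic anhydrase relative, had log2 -0.66 (adjusted p = 3.0e-04), which was -0.06 without the trend (adjusted p = 0.67).

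**Figure D4:**
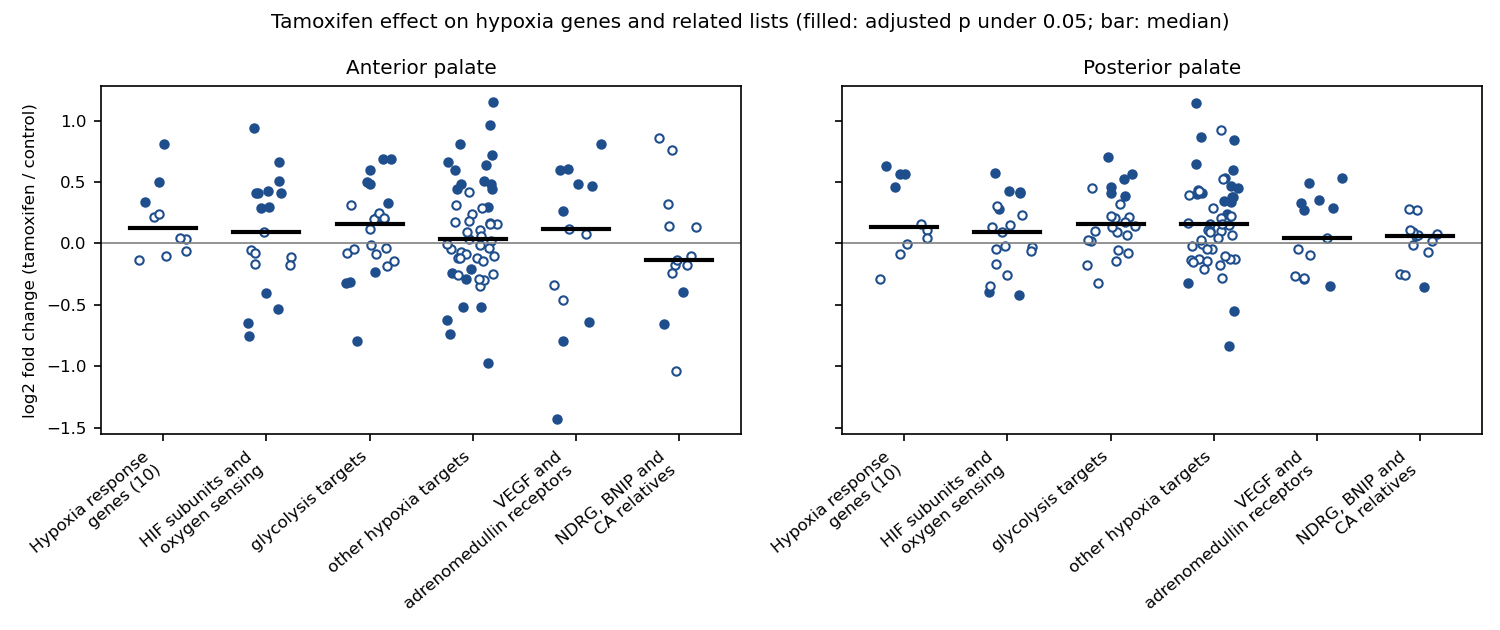
Log2 fold change after tamoxifen of each tested gene in the 10 members and the 5 wider lists, in anterior and posterior palate, on the counts as deposited; points are genes, filled where the adjusted p is under 0.05, and bars mark list medians. The members' median is 0.13 in both regions, and every list holds genes on both sides of 0.

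Genes with the most similar profile over the 12 libraries were found for each member by the root mean square difference of centred log2 CPM. This used genes of at least 5 CPM and the counts as deposited, so shared length and GC trends add to the likeness. The nearest to Hif1a was Zfp644 (0.05, while Hif1a itself ranged over 1.10 log2 units). Bnip3 was nearest to Pdk1 (0.11 over a range of 1.13), a gene of the wider glycolysis list. With the trend removed, their anterior tamoxifen effects were apart, log2 0.43 for Bnip3 (adjusted p = 0.019) and 0.08 for Pdk1 (adjusted p = 0.47). Slc2a1 was nearest to Tor4a (0.10) and Klf5 (0.11, an epithelial transcription factor), and Ndrg1 to Cldn6 (0.10) and Wnt7b (0.11). Egln1 was nearest to Col18a1 (0.06) and Egln3 to Enpp5 (0.09). For Adm the nearest gene, Anxa8, was at 0.23, the poorest likeness of the 10. These are descriptions over the same 12 libraries, which share group differences, and are no test of a link.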

How the data were processed

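RNA was sequenced from 12 palatal shelf libraries in 4 groups of 3. The authors deposited raw counts per gene symbol, 1 file per library, without normalization. HISAT2, StringTie and build mm9 were used, per the submitters' processing notes, while versions, annotation, strandedness and the program that counted reads were not given in the sources used here. Even values made up 57.1 to 60.1% of counts from 1 to 100. Mates of some read pairs may have been counted separately, which was not tested. Members and gene lists were chosen with earlier results of these data known.

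From the deposited counts, edgeR 4.0.16 in R 4.3.3 was run with filterByExpr by group (15958 genes), TMM scaling and a robust quasi-likelihood fit of 1 mean per group over the 12 libraries (8 residual degrees of freedom). It gave 5 contrasts, with Benjamini-Hochberg adjustment over all genes and a threshold of 0.05. The length and GC trend (longest GENCODE M21 transcript per symbol, natural splines of 4 degrees of freedom) was fitted per library on genes above log2 CPM 1 and removed as an offset (15844 genes). Scripts were tested on simulated data. Alternatives were other scalings, no filter, DESeq2 1.42.0, limma-voom 3.58.1, the replicate number as a block, fits on 1 comparison's libraries and each library left out. In the wider lists, up to 3 called genes with the smallest adjusted p per list and contrast could be named. Gene coordinates and promoters are of GRCm38, not of the authors' build, and no counts were placed by them.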

Additional observations from a re-analysis of the deposited data

How the results depend on the processing

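The number of members called in each comparison stayed at 3 (tamoxifen, anterior), 4 (tamoxifen, posterior), 4 (regions, controls), 1 (regions, tamoxifen) and 0 (difference of effects) under median-ratio scaling, upper-quartile scaling, no expression filter and DESeq2. All 40 group levels moved by less than 1 SD when CPM used plain library totals. With limma-voom the region comparison under tamoxifen had 2 calls. Fitting the libraries of a comparison alone gave 2, 3, 5 and 1 calls in the first 4 comparisons, the order above. With the length and GC trend removed there were 5 anterior tamoxifen calls and 2 region calls under tamoxifen. Together with the replicate block this fit gave 4 and 2. Egln1 in the anterior palate turned from log2 -0.06 to 0.19 with the trend removed, to 0.19 with the block as well, and to 0.23, 0.21 and 0.22 when control replicate 3, tamoxifen replicate 1 or tamoxifen replicate 3 was also left out, a set of fits chosen after seeing the data. Leaving out 1 library at a time gave 2 to 3 anterior tamoxifen calls, 3 to 4 posterior ones, 2 to 3 region calls in controls, 1 to 3 under tamoxifen and 0 for the difference of effects. With the trend also removed these ranges were 2 to 4, 2 to 6, 2 to 3, 2 to 4 and 0. Of 18 pairs of libraries with the same replicate number in different groups, 7 had a correlation of deviations above 0.1 (range -0.164 to 0.295). Pairs with different numbers reached 0.306 (anterior tamoxifen replicate 2 with posterior tamoxifen replicate 1), so the numbers were not taken as pairing. These numbers are those of the sample titles, and the column headers of the count files carry others. A pairing under other numbers was not tested. The replicate block left the counts of calls at 3, 4, 4, 1 and 0. Adm rests on 3 to 69 counts per library. The cause of these shifts was not tested.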
